A study of Mus musculus with 15 samples.

Results

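CD4 T cells taken from the small intestine of male mice after 30 days on a high-fat diet were compared with the same cells taken after 10 days on that diet. The comparison used 10 of the 15 arrays of the series, 5 labelled day 30 and 5 labelled day 10, and the samples were chosen by their titles alone. Both groups ate the high-fat diet, so the comparison asks what differs between an early and a later time on the diet, and the series title speaks of prediabetic and diabetic animals. The other 5 arrays came from control mice, and their values are given only as context. In all groups the cells were isolated by flow cytometry out of lamina propria leukocytes, the lamina propria being the tissue layer beneath the gut epithelium. Their lysates were amplified with SuperAmp, a commercial method for scarce RNA, and 250 ng of the cDNA was labelled with Cy3. The sources used here give no strain, age or diet composition, and time on the diet cannot be told apart from the age of the mice. The labels do not say whether each sample is its own mouse, so p-values reflect the spread among these samples alone, which may be technical.

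CD4 T cells read peptides on MHC class II and direct other immune cells through cytokines. In the lamina propria they include Th17 cells, which make IL-17 and IL-22, Th1 cells, which depend on T-bet and make interferon gamma, and regulatory T cells, which depend on Foxp3 and restrain the others. Gut bacteria and food components are known to shape the balance among them, and changing the microbiota is the stated purpose of the diet in the series design.

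A level below is the log2 processed intensity of a gene's brightest probe minus the 75th percentile of its array, so a level of 0 equals that percentile. A difference is the mean level at day 30 minus that at day 10, in log2 units. Each level belongs to one probe and is not set against the level of another gene. A spot is called well above background by the scanner software. Of 34821 gene names, 21806 passed this call on 5 or more of the 10 arrays and were tested.

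The 10 arrays lay on 2 slides, which were also scanned apart. Day 10 replicates 1 to 3 shared slide 1 with the control arrays, while day 10 replicates 4 and 5 shared slide 2 with all 5 day 30 arrays. The within-slide comparison therefore set 5 day 30 arrays against 2 day 10 arrays. Across tested genes the Pearson correlation between arrays had a median of 0.762 among day 10 arrays, 0.736 among day 30 arrays and 0.747 between the groups. Arrays of different times thus correlated about as closely as arrays of the same time.

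No gene passed an adjusted p of 0.05 between day 30 and day 10 (0 of 21806, 0%; limma, Benjamini-Hochberg adjustment), and the smallest adjusted p was 0.103. At an unadjusted p under 0.05, 988 genes differed, against 1090.3 that a 5% level alone would give. Of these, 483 had a higher level at day 30 (2.21% of genes tested) and 505 a lower level (2.32%). The 5 day 30 values lay entirely above the 5 day 10 values for 61 genes (0.28%) and entirely below them for 60 genes (0.275%). The typical difference was not larger than its error: the median standard error over genes was 0.76, and the median absolute difference was 0.46. Leaving out day 30 replicate 5 gave 2 genes at an adjusted p under 0.05, and leaving out day 30 replicate 4 gave 1529 genes at an unadjusted p under 0.05.

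Within slide 2 the count at an adjusted p under 0.05 was again 0 by limma, with a smallest adjusted p of 0.202. At an unadjusted p under 0.05, 856 genes differed there, against 1090.3 that a 5% level alone would give. Of these 856, 456 had a higher and 400 a lower level at day 30. The 988 genes of the comparison over both slides all had the same sign within slide 2, where 382 of them also had an unadjusted p under 0.05. The same day 30 arrays and 2 of the day 10 arrays enter both comparisons, so this is not independent support. Among the day 10 arrays alone, slide 2 and slide 1 differed at an unadjusted p under 0.05 for 1287 genes, again against 1090.3 at a 5% level. At an adjusted p under 0.05 they differed for 0 genes (limma). The median absolute difference between the slides was 0.66, and that between the times within slide 2 was 0.59. The former sets 2 arrays against 3 and the latter 5 against 2, so their errors differ and their sizes cannot be ranked.

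Fewer spots were well above background at day 30. Their share was 61.9%, 60.2%, 55.6%, 55.3% and 59.3% on day 10 replicates 1 to 5, and 48.7%, 53.7%, 45.2%, 59.5% and 49.6% on day 30 replicates 1 to 5. Day 30 replicate 4 lay within the day 10 range, and the other day 30 arrays lay below it. The day 10 mean was 58.5% ± 2.91 (SD, n = 5) and the day 30 mean 51.3% ± 5.48 (SD, n = 5), a difference of -7.13 percentage points (exact permutation test, two-sided, p = 0.0397, with 0.00794 the smallest p it can give). On slide 2 the difference was -5.95 points, with 57.3% ± 2.85 (SD, n = 2) at day 10 and p = 0.286 by the same exact test, which can give no p below 0.0952 there. Leaving out 1 array at a time moved the exact p between 0.0159 and 0.0794. The cause of the lower share was not tested. Cell number, RNA per cell, amplification and labelling cannot be told apart in these bulk samples. The sources used here do not state how many cells were sorted.

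**Figure D1:**
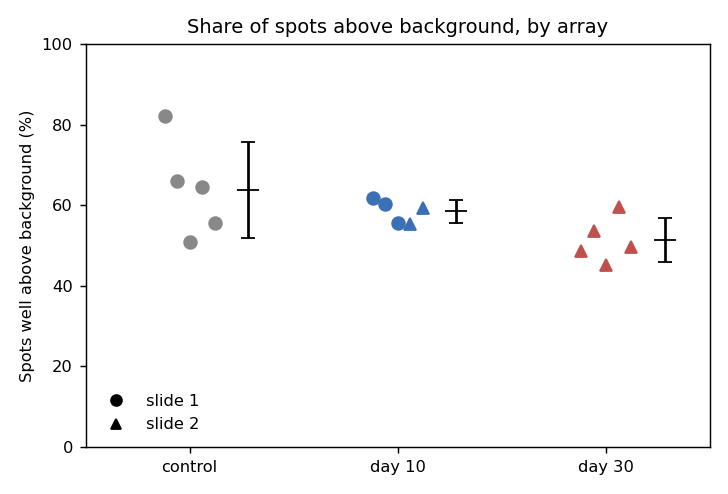
Share of spots well above background (percent, vertical axis) for each array of the control, day 10 and day 30 groups. Circles are arrays on slide 1, triangles arrays on slide 2, and the bar beside each group is the mean with its SD. Day 30 replicate 4 (59.5%) sits among the day 10 arrays, and the other day 30 arrays lie between 45.2% and 53.7%.

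The part of this share in the differences below was not tested beyond its use as a covariate. Over all tested genes the median was 0.08, and 54.7% of genes had a higher mean at day 30. The scaling sets this centre: the median was -0.22 with the percentile taken over probes detected on all 10 arrays, and -0.15 in the deposited log2 table, where spots that were not well above background are empty. The genes at an unadjusted p under 0.05 divided into 219 higher and 843 lower under the former and 258 higher and 882 lower under the latter, and into 588 higher and 336 lower with normexp background correction. Gene lists are therefore read against the median of all genes under the same scaling. Within slide 2 that median was 0.12.

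Genes that define the sorted cell were present on every array. Cd4, the coreceptor used for the sort, had levels of 4.11, 3.05, 3.61, 3.96 and 3.65 at day 10 and 4.59, 3.92, 5.17, 3.26 and 3.64 at day 30. The groups overlapped, and the difference was 0.44 with a standard error of 0.38 (limma, adjusted p = 0.978). A further Cd4 probe gave a difference of -0.31, so the sign is not shared. Cd3e, the signalling chain of the T cell receptor complex, had a day 10 mean of 0.46 ± 0.92 (SD, n = 5) and a day 30 mean of 1.19 ± 1.27 (SD, n = 5). Of 21 genes of T cell receptor signalling and CD4 identity, all were tested, 17 had a higher and 4 a lower mean at day 30, and the median difference was 0.42. That median was 0.09 within slide 2, where all genes had a median of 0.12, and -0.09 in the deposited table against -0.15 for all genes. Lat, the adaptor that couples the receptor to downstream enzymes, was the member of smallest p, with a difference of 0.71 and an unadjusted p of 0.0412.

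Marker lists of cell types that might accompany a lamina propria sort were examined as well. The macrophage and dendritic cell list had 11 of 18 members tested, 8 with a higher and 3 with a lower mean at day 30. Its summed linear level ran from 449 to 701 at day 10 and from 495 to 1085 at day 30. The ranges overlapped. Such a sum is carried by the brightest members, so sums of different lists are not set against each other. The mean log2 level of the list ran from 0.04 to 1.10 at day 10 and from 0.58 to 1.69 at day 30. The integrin gene Itgax, a defining dendritic cell marker, was well above background on 0 of the 10 arrays, and the lysozyme gene Lyz2 on 0 day 10 and 3 day 30 arrays. Apoe, an apolipoprotein abundant in macrophages, was the member of smallest p. Its levels were -1.36, -1.16, -1.69, -1.97 and -1.56 at day 10 and 0.38, -1.57, 0.31, 0.25 and 0.48 at day 30. All day 30 arrays but replicate 2 lay above the day 10 range, with a difference of 1.52 (unadjusted p = 0.0188) and 1.73 within slide 2.

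For B and plasma cells 10 of 17 markers were tested, 6 with a higher and 4 with a lower mean, and Ms4a1, which encodes CD20, was well above background on 0 of 10 arrays. Their summed level ran from 37.7 to 67.5 at day 10 and from 41.4 to 76.3 at day 30. Among the tested markers Cd79a differed by 2.20 and Ebf1 by -1.11, and none of the list had an unadjusted p under 0.05 by limma. The cytotoxic list, with genes of CD8 T and NK cells, had 14 of 17 tested, 3 higher and 11 lower at day 30, with a median difference of -0.38. Its summed level ran from 108 to 184 at day 10 and from 99.1 to 165 at day 30. Cd8b1, a defining CD8 chain, was well above background on 1 day 10 and 0 day 30 arrays, whereas Cd8a passed the filter with a difference of -1.82. No member of the cytotoxic list had an unadjusted p under 0.05 by limma. The granulocyte and mast cell list had 6 of 16 tested, 1 higher and 5 lower, with a median of -1.003 that was -1.23 within slide 2. Its mean level ran from -1.64 to -1.09 at day 10 and lay below that range on every day 30 array. The lowest day 30 value was -2.91 and the day 30 median -2.46. Its summed linear level ran from 2.01 to 7.63 at day 10 and from 1.71 to 7.97 at day 30. Only 2 of the 6 tested genes passed the background call on each of the 10 arrays, so signals too dim for that call enter the list mean. The median difference of these 2 was -0.19, against 0.18 for all genes so filtered. Genes lost at day 30 cannot pass that filter. Within that list Kit, a growth factor receptor of mast and innate lymphoid cells, had a difference of -2.47 (unadjusted p = 0.0307) that was -4.55 within slide 2 and -1.08 against the day 10 arrays of slide 1. Siglecf, an eosinophil surface lectin, had one of -2.11 (unadjusted p = 0.0417). S100a9 and Ms4a2 of the same list were well above background on 0 of 10 arrays.

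Epithelial and stromal markers were mostly dim. Of 21 absorptive epithelium markers 12 were tested, 8 higher and 4 lower, with a median of 0.15 that was 1.18 within slide 2. With the percentile over detected probes it was -0.15, against -0.22 for all genes. Not every member was dim: 2 were well above background on all 10 arrays. The summed linear level of the list, again carried by its brightest members, ran from 222 to 350 at day 10 and from 253 to 567 at day 30. Its mean log2 level ran from -2.46 to -0.98 at day 10 and from -2.55 to -0.67 at day 30. Apoa1, Apob, Alpi and Slc2a2 were well above background on 0 of 10 arrays. The secretory epithelium list had 7 of 18 tested, 3 higher and 4 lower. For stroma, muscle and endothelium 8 of 17 were tested, 2 higher and 6 lower (median -0.76), and Lum, a matrix proteoglycan, had a difference of -2.34 (unadjusted p = 0.019). Acta2, Cdh5, Col1a2, Lyve1 and Sparc were well above background on 0 of 10 arrays. The innate lymphoid list had 10 of 11 tested, 6 higher and 4 lower, the pancreatic acinar list 5 of 13, 2 higher and 3 lower, and the red blood cell list 2 of 10, both lower. No marker of any of these lists passed the adjusted threshold.

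Of 35 T cell genes chosen for their roles, 32 were tested, 22 with a higher and 10 with a lower mean at day 30, and the smallest limma adjusted p among them was 0.978. At an unadjusted p under 0.05, 2 were higher (Il17f and Ccr7) and 1 was lower (Pdcd1), beside 2.21% higher and 2.32% lower of all genes tested. Il4, Il13 and Cxcr5 did not reach the detection filter, with Il4 well above background on 1 array of each group, Il13 on 0 day 10 and 2 day 30 arrays and Cxcr5 on none of the 10.

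Pdcd1 encodes PD-1, an inhibitory receptor of activated and follicular helper T cells. Its levels were 4.20, 2.49, 2.19, 3.54 and 3.20 at day 10 and -0.58, 0.21, 0.35, -5.56 and 0.53 at day 30. Every day 30 value lay below every day 10 value, and replicate 4 lay far below the other day 30 arrays. The difference was -4.13 with a standard error of 1.06, an unadjusted p of 0.00228 and a limma adjusted p of 0.978. Within slide 2 it was -4.38. The control arrays averaged 1.48 ± 0.86 (SD, n = 5), between the groups. Among other inhibitory receptors, Ctla4 differed by 0.19 (standard error 0.25) and Cd244a by 0.41 (standard error 0.39). In that list 9 of 12 members were tested, 5 higher and 4 lower. Bcl6, the transcription factor of follicular helper cells, had a day 10 mean of 1.70 ± 1.05 (SD, n = 5) and a day 30 mean of 1.73 ± 1.09 (SD, n = 5). The follicular helper list had 3 of 9 tested members higher and 6 lower, with a median of -0.21.

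**Figure D2:**
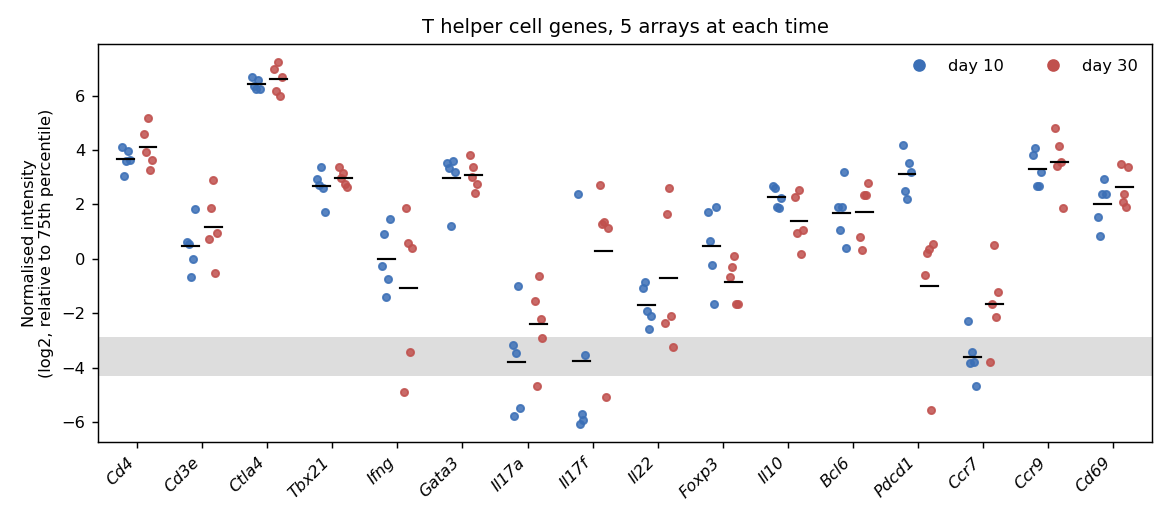
Levels of 16 T cell genes on the 5 day 10 arrays (blue) and the 5 day 30 arrays (red), in log2 units relative to the 75th percentile of each array. Short lines are group means, and the grey band is the range over arrays of the dimmest signal still well above background (-4.31 to -2.87). Of the genes drawn, Pdcd1 alone has groups that do not overlap.

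Th17 genes had wide spreads. Il17f, an IL-17 family cytokine, had levels of 2.39, -6.07, -5.69, -5.93 and -3.52 at day 10 and 2.73, 1.30, 1.36, -5.07 and 1.12 at day 30. It was well above background on 2 day 10 and 4 day 30 arrays, and day 10 replicate 1 and day 30 replicate 4 lay among the values of the opposite group. The difference was 4.05 with a standard error of 1.83 (unadjusted p = 0.0476, limma adjusted p = 0.978) and 5.01 within slide 2. Control arrays averaged 0.52 ± 2.14 (SD, n = 5). Il17a, the lead cytokine of the subset, had values of -3.18, -5.79, -3.47, -0.99 and -5.49 at day 10 and -1.55, -4.68, -0.63, -2.20 and -2.89 at day 30, with 2 and 4 arrays well above background. The groups overlapped and the difference of 1.39 had a standard error of 1.04.

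Il22, a cytokine that acts on epithelium, was well above background on all 10 arrays. Its levels were -1.06, -0.85, -1.93, -2.57 and -2.08 at day 10 and -2.35, 1.66, 2.59, -2.12 and -3.24 at day 30. Only day 30 replicates 2 and 3 stood above the day 10 arrays, and the difference was 1.01 with a standard error of 1.11. Il23r, the receptor chain that maintains Th17 cells, differed by 0.38 (standard error 0.98, -0.64 within slide 2) and Ccr6, their homing receptor, by 0.12 (standard error 1.47). Of 18 Th17 genes 15 were tested, 10 higher and 5 lower, with a median of 0.38. It was 0.10 within slide 2 and -0.08 after adjustment for the detection share, against 0.12 and -0.10 for all genes there.

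Among Th1 genes, Tbx21, which encodes T-bet, had levels of 2.92, 2.72, 3.37, 2.60 and 1.72 at day 10 and 3.38, 2.96, 3.14, 2.75 and 2.66 at day 30, a difference of 0.31 with a standard error of 0.34. Ifng, the Th1 cytokine, had levels of -0.25, 0.90, -1.42, -0.73 and 1.46 at day 10 and -4.88, 1.88, 0.57, -3.44 and 0.41 at day 30. Day 30 replicates 1 and 4 were low and the other day 30 arrays lay in or above the day 10 range, so the difference of -1.08 had a standard error of 1.24. The chemokine receptor gene Cxcr3 differed by 0.52 (standard error 0.92). Of 16 Th1 genes 14 were tested, 10 higher and 4 lower, with a median of 0.25. It was -0.04 under quantile normalization, -0.05 with the percentile over detected probes and -0.16 in the deposited table. All genes had 0.01, -0.22 and -0.15 there.

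Th2 genes were represented by Gata3, the transcription factor of the subset, with a difference of 0.09 and a standard error of 0.48, and of -0.34 within slide 2. Il4ra, the IL-4 receptor chain, had levels of 4.10, 3.21, 4.17, 4.03 and 4.02 at day 10 and 5.56, 4.57, 5.15, 3.76 and 4.52 at day 30. All day 30 arrays but replicate 4 lay above the day 10 range. The difference was 0.81 (standard error 0.35, unadjusted p = 0.0397) and 0.69 within slide 2, while 1 of the 2 Il4ra probes had the opposite sign. Of 14 Th2 genes 9 were tested, 7 higher and 2 lower, with a median of 0.31.

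Foxp3, the regulatory T cell factor, had levels of 1.73, 0.66, -0.24, -1.68 and 1.92 at day 10 and -0.68, -0.30, 0.09, -1.68 and -1.65 at day 30. Day 10 replicates 1, 2 and 5 were above all day 30 arrays, and replicate 4 was among the lowest. The difference was -1.32 with a standard error of 0.74 (unadjusted p = 0.102). Il10, an anti-inflammatory cytokine of these and other T cells, had levels of 2.68, 2.60, 1.92, 1.86 and 2.23 at day 10 and 2.26, 0.94, 2.53, 0.19 and 1.04 at day 30, a difference of -0.87 with a standard error of 0.48. Ebi3, a subunit of IL-35 and IL-27, was well above background on 4 day 10 arrays and 1 day 30 array and differed by -3.44 (standard error 1.47, unadjusted p = 0.038). Ikzf2, which encodes Helios, differed by -1.39 (standard error 0.86), and its further probe by 2.12. Il2ra, the high-affinity IL-2 receptor chain, was well above background on 3 arrays of each group and differed by 1.16 (standard error 1.78). Of 19 regulatory T cell genes 14 were tested, 6 higher and 8 lower, with a median of -0.09 overall and -0.54 within slide 2.

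Among migration genes the chemokine receptor gene Ccr2 had the smallest p. Its levels were 1.15, 1.38, 1.25, 1.42 and 0.44 at day 10 and 2.92, 2.01, 2.99, 2.05 and 2.37 at day 30. The groups did not overlap. The difference was 1.34 with a standard error of 0.36 (unadjusted p = 0.00326, limma adjusted p = 0.978), and 1.54 within slide 2. Control arrays averaged 1.83 ± 1.91 (SD, n = 5), a spread that covers both groups. CCR2 is carried by monocytes as well as memory T cells, and the part of the macrophage markers described above in this value was not tested. Cxcr4, the receptor for CXCL12, had levels of -1.36, -0.37, -2.79, -4.59 and -0.21 at day 10 and 2.79, 1.23, 2.59, -3.32 and 1.24 at day 30, with replicate 4 again apart from the other day 30 arrays (difference 2.77, unadjusted p = 0.0435).

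The gut-homing receptor genes gave no such separation. Ccr9 differed by 0.27 (standard error 0.52), Itga4 by -0.43 (standard error 0.93) and Itgb7 by 0.99 (standard error 0.65). Itgae, the integrin chain of tissue-resident cells, differed by 0.59 (standard error 1.37) over all arrays and by -1.18 within slide 2. Cd69, a residency and activation marker, differed by 0.64 (standard error 0.49) and Cd44, a memory marker, by -0.43 (standard error 0.50), the latter by -1.40 within slide 2. The 4 Cd44 probes that passed the filter were divided, 2 higher and 2 lower. Of 16 genes of gut homing, memory and residency 14 were tested, 11 higher and 3 lower, with a median of 0.41 that was 0.09 within slide 2 and -0.01 in the deposited table, against -0.15 for all genes there.

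Ccr7, the receptor that guides naive cells to lymph nodes, was dim. Its levels were -2.27, -3.81, -3.44, -3.81 and -4.66 at day 10 and -3.78, -1.64, 0.52, -2.14 and -1.21 at day 30, with 2 and 4 arrays well above background. The difference was 1.95 (standard error 0.82, unadjusted p = 0.0357) and 2.58 within slide 2. Klf2 and S1pr1, which act in recirculation, had differences of -0.92 (standard error 1.53) and -0.41 (standard error 0.73). Tcf7, a factor of naive and memory cells, and Il7r, the IL-7 receptor chain, differed by 0.24 (standard error 0.35) and 0.44 (standard error 0.43). Of 14 naive and recirculating genes 12 were tested, 5 higher and 7 lower, with a median of -0.29. It was 0.07 with normexp correction, against 0.11 for all genes there.

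Across the 31 lists of T cell programmes and cell functions, 22 had a median difference above the median of all genes. None held a gene that passed the adjusted threshold. The immediate early genes, transcription factors and phosphatases switched on within minutes of stimulation, had the highest median, 0.61, with 18 of 19 tested members higher and 1 lower. Egr1 had levels of 0.88, 2.30, 2.46, 2.17 and 1.27 at day 10 and 3.70, 2.33, 4.31, 2.87 and 2.35 at day 30, a difference of 1.29 (unadjusted p = 0.0212). Atf3, a stress-induced factor, had levels of 1.98, 1.23, -0.44, -6.22 and 1.14 at day 10 and 4.50, 2.51, 3.62, 1.25 and 2.97 at day 30, a difference of 3.43 (unadjusted p = 0.0279) that rests in part on day 10 replicate 4. The list median was 0.29 within slide 2 and 0.03 in the deposited table, against 0.12 and -0.15 for all genes there. With the share of detected spots as a covariate it was -0.16, against -0.10 for all genes.

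Heat shock genes, which encode protein chaperones, had a median of 0.59 that was -0.04 in the deposited table, above the -0.15 of all genes there. Of 15 tested members, 13 were higher and 2 lower. Hspe1, the mitochondrial co-chaperone, had levels of 2.79, 2.02, 2.48, 2.51 and 2.38 at day 10 and 4.13, 3.54, 4.98, 2.21 and 3.55 at day 30. Hspa8, the constitutive Hsp70, had levels from 6.14 to 6.78 at day 10 and from 6.56 to 7.67 at day 30. In both genes every day 30 array except replicate 4 lay above every day 10 array. The differences were 1.25 and 0.59, with unadjusted p-values of 0.0181 and 0.0214, and Hsph1, the Hsp110 chaperone, had a difference of 1.16 (unadjusted p = 0.0283). The mean level of the list on day 30 replicate 4 was 2.06, against 3.36 to 3.77 on the other day 30 arrays and 2.34 to 3.04 at day 10. Within slide 2 the median was 0.42, against 0.12 for all genes. Adjusted for the detection share it was -0.07, against -0.10 for all genes.

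Genes of the cytosolic ribosome had small differences, mostly of one sign. Of 77 genes 76 were tested, all well above background on the 10 arrays. At day 30, 74 had a higher and 2 a lower mean, with a median of 0.38 that was -0.08 in the deposited table, against -0.15 for all genes there. The list mean on each array was 5.48, 4.89, 5.47, 5.62 and 5.52 at day 10 and 5.89, 5.61, 6.21, 5.30 and 5.80 at day 30. Day 30 replicate 4, the array with the highest detection share of its group, lay inside the day 10 range, as did replicate 2. Rps12 differed by 0.54 (standard error 0.22, unadjusted p = 0.0328) and Rpl21 by 0.42 (standard error 0.18, unadjusted p = 0.0366). Within slide 2 the ribosomal median was 0.20 and under quantile normalization 0.11, against 0.12 and 0.01 for all genes. Adjusted for the detection share it was -0.10, the same as for all genes. Ribosomal protein genes have near-identical processed copies in the genome, which probes may not separate.

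**Figure D3:**
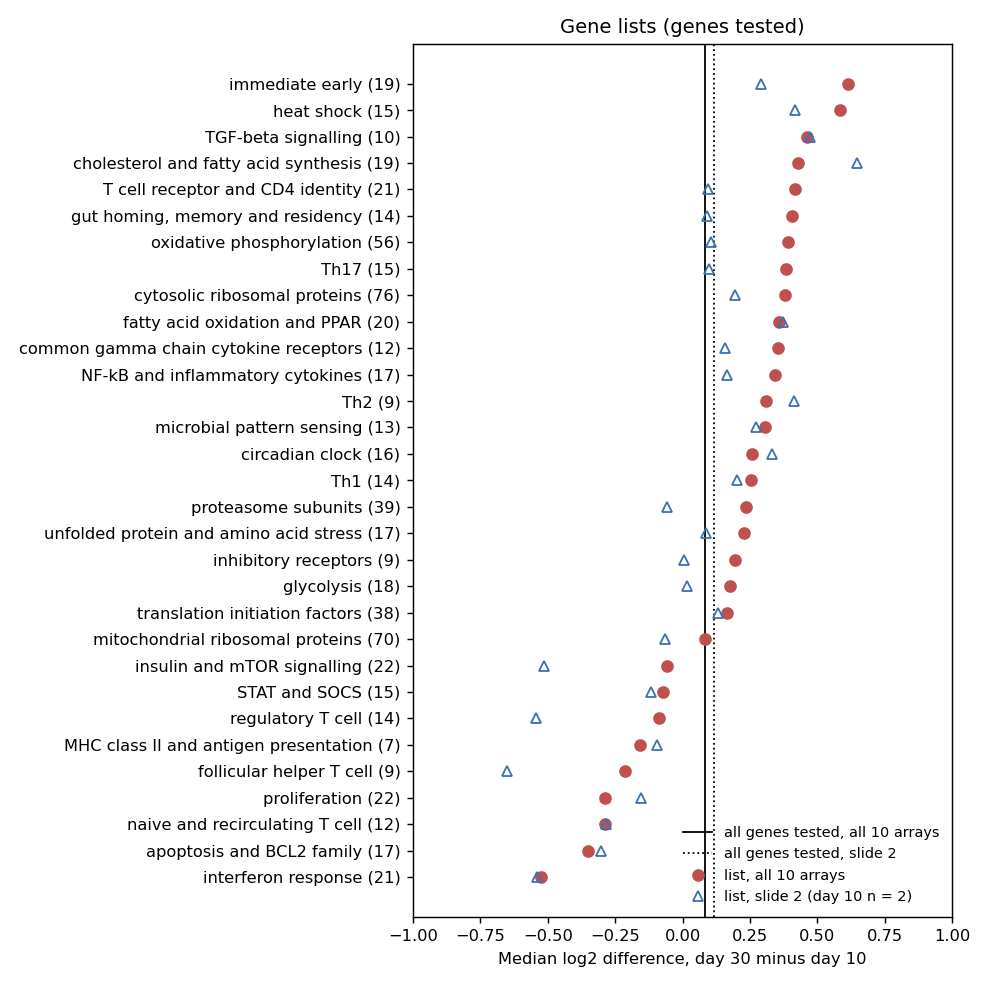
Median log2 difference, day 30 minus day 10, of 31 gene lists (tested members in brackets), over all 10 arrays (red circles) and within slide 2 (blue triangles, 2 day 10 arrays). The solid and dotted lines mark the medians of all tested genes, 0.08 and 0.12, and the lists run from -0.53 for interferon response to 0.61 for immediate early genes.

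Mitochondrial genes were mixed. Of 58 genes of oxidative phosphorylation 56 were tested, 42 higher and 14 lower, with a median of 0.39 that was 0.10 within slide 2 and -0.16 in the deposited table, against -0.15 for all genes there. Uqcrc2, a core protein of complex III, had levels of 1.53, 2.88, 1.31, 1.34 and 2.68 at day 10 and 4.02, 2.34, 3.97, 2.55 and 3.46 at day 30, a difference of 1.32 (unadjusted p = 0.0176). Mitochondrial ribosomal proteins had 38 of 70 tested members higher and 32 lower, with a median of 0.08 that equalled that of all genes. Among them Mrps21 differed by -4.10, with 5 day 10 arrays and 1 day 30 array well above background, and Mrps18a by 3.90, with 4 and 5.

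Fat metabolism bears on the diet, and its genes were dim. Of 27 genes of fatty acid oxidation and PPAR signalling 20 were tested, 13 higher and 7 lower, with a median of 0.36 that was 0.37 within slide 2 and -0.04 in the deposited table, against -0.15 for all genes there. Ppargc1a, a coactivator of mitochondrial genes, had levels of -2.08, -4.04, -3.88, -6.43 and -6.46 at day 10 and -0.92, 0.26, 0.25, -0.99 and -4.80 at day 30. It was well above background on 1 day 10 and 4 day 30 arrays, and its difference was 3.33 (unadjusted p = 0.0137). Fabp5, a fatty acid binding protein, had levels of -1.22, -4.77, -2.26, -6.36 and -6.42 at day 10 and -0.07, -0.61, -3.67, -0.27 and -1.33 at day 30 (difference 3.01, unadjusted p = 0.0227). In both genes the day 10 arrays on slide 2, replicates 4 and 5, were not well above background. Within slide 2 only a minimum fold can therefore be given, of at least 8.32-fold for Ppargc1a and at least 8.62-fold for Fabp5. It sets the day 30 mean over all 5 arrays against the dimmest signal still well above background on the day 10 arrays.

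The cholesterol and fatty acid synthesis list had 15 of 19 tested members higher and 4 lower, with a median of 0.43 that was 0.65 within slide 2, 0.38 with the detection share as a covariate and -0.08 in the deposited table, against -0.15 for all genes there. Scap, the sterol-sensing escort of SREBP, had levels of 1.81, 0.25, 0.16, 1.40 and -1.50 at day 10 and 3.83, 0.85, 2.67, 1.78 and 2.31 at day 30 (difference 1.86, unadjusted p = 0.0219). Elovl6, a fatty acid elongase, went the other way, with a difference of -2.68 (unadjusted p = 0.0398).

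Sugar and growth pathways were also examined. Of 18 tested glycolysis genes 10 were higher and 8 lower, with a median of 0.18. It was -0.10 under quantile normalization, -0.13 with the percentile over detected probes and -0.17 in the deposited table. All genes had 0.01, -0.22 and -0.15 there. Pgk1, phosphoglycerate kinase, differed by 1.29 (unadjusted p = 0.0257). Of 22 tested genes of insulin and mTOR signalling 9 were higher and 13 lower, with a median of -0.06 that was -0.51 within slide 2. Insr, the insulin receptor, had levels of 0.10, 0.54, 1.48, -4.56 and -5.88 at day 10 and 2.88, 0.91, 2.36, 1.03 and 1.75 at day 30. Its difference of 3.45 (unadjusted p = 0.0247) thus depends on which day 10 arrays are used. On those of slide 1 the mean was 0.71, and on those of slide 2 the probe was not well above background, which gives at least 67.8-fold within slide 2. Of its 3 probes, 2 had the opposite sign.

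Interferon response genes had the lowest median of the 31 lists, -0.53, with 9 of 21 tested members higher and 12 lower. Xaf1, an interferon-induced apoptosis factor, had levels of -1.16, -1.58, -0.48, -0.74 and -0.83 at day 10 and -4.22, -3.33, -2.35, -2.50 and -5.63 at day 30. The groups did not overlap, and the difference was -2.65 (standard error 0.72, unadjusted p = 0.00326, limma adjusted p = 0.978). Oas1a, an antiviral RNA sensor, had a difference of -2.43 (unadjusted p = 0.0116), whereas Isg15, a ubiquitin-like modifier, had one of 0.98 (unadjusted p = 0.0483) with probes of both signs. The interferon median was 0.04 with normexp correction and -0.11 without day 30 replicate 4, against 0.11 and 0.08 for all genes. With values raised to the dimmest signal still well above background on each array it was -0.03, against 0.13 for all genes. Among the 8 members well above background on all 10 arrays it was 0.68, against 0.18 for all genes so filtered. Genes lost at day 30 cannot pass that filter.

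Innate and inflammatory genes included Il1b, the cytokine IL-1β made chiefly by myeloid cells. Its levels were -1.25, -0.75, -1.48, -2.95 and -3.25 at day 10 and 0.24, -1.38, 1.49, -1.02 and 0.38 at day 30, a difference of 1.88 (unadjusted p = 0.0278) and of 3.04 within slide 2. Cd14, a coreceptor for bacterial lipopolysaccharide on monocytes, had levels of -3.53, -2.59, -3.13, -1.92 and -4.07 at day 10 and 0.22, -0.73, -1.06, -2.87 and -1.45 at day 30 (difference 1.87, unadjusted p = 0.0229). Cd74, the MHC class II invariant chain of antigen-presenting cells, had levels of 3.28, 2.19, 3.45, 2.59 and 0.79 at day 10 and 4.68, 3.29, 4.93, 3.79 and 3.23 at day 30 (difference 1.53, unadjusted p = 0.016). In the list of MHC class II and antigen presentation to which Cd74 belongs, 3 of 7 tested members were higher and 4 lower, with a median of -0.16. H2-DMa and H2-Ob, which act in peptide loading, had differences of -2.34 and -0.56 there, and of -0.70 and 0.41 within slide 2. Il1b, Cd14 and Cd74 are typical of myeloid or antigen-presenting cells, as Apoe is, and the part of such cells in their values was not tested. Each of these genes was named for a small p within its list. The granulocyte and mast cell list went the other way, with 1 of 6 tested members higher, 5 lower and a median of -1.003. In the macrophage and dendritic cell list as a whole the median difference was 0.28. It was -0.03 with the percentile over detected probes and -0.12 in the deposited table, against -0.22 and -0.15 for all genes there. The NF-kB and inflammatory cytokine list had 12 of 17 tested members higher and 5 lower, the microbial sensing list 7 of 13 higher and 6 lower.

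Cell cycle genes had 9 of 22 tested members higher and 13 lower, with a median of -0.29. Mcm6, part of the replicative helicase, had levels of 3.05, 1.72, 1.05, 1.92 and 0.11 at day 10 and -3.80, -0.30, -3.65, 1.31 and -4.78 at day 30 (difference -3.81, unadjusted p = 0.00594). Day 30 replicate 4 lay within the day 10 range of Mcm6 and the other day 30 arrays below it. Ccne1, cyclin E1, differed by -1.83 (unadjusted p = 0.0378). Without day 30 replicate 4 the list median was -0.02. The circadian clock list (12 of 16 higher, 4 lower) had a median of 0.26 and the unfolded protein response (9 of 17 higher, 8 lower) one of 0.23. Apoptosis (8 of 17 higher, 9 lower) had a median of -0.35 that was -0.30 within slide 2. Among genes well above background on all 10 arrays the apoptosis median was 0.15, against 0.18 for all genes. Receptors of the common gamma chain cytokines had 11 of 12 tested members higher and 1 lower, with a median of 0.35 that was -0.12 in the deposited table, against -0.15 for all genes there. TGF-beta signalling had 7 of 10 higher and 3 lower, with a median of 0.46 that was 0.47 within slide 2. In the deposited table its median was 0.003, against -0.15 for all genes. STAT and SOCS genes had 6 of 15 higher and 9 lower, with a median of -0.07.

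Lists of translation and protein turnover had 5 of 38 initiation factor genes and 3 of 39 proteasome genes at an unadjusted p under 0.05, beside 4.53% of all genes. Of the 38 initiation factor genes 25 were higher and 13 lower, with a median of 0.17. It was -0.09 under quantile normalization, -0.14 with the percentile over detected probes and -0.18 in the deposited table. All genes had 0.01, -0.22 and -0.15 there. Eif2s2, the beta subunit of the factor that brings initiator tRNA to the ribosome, had levels of -0.05, -1.74, 0.61, 1.06 and -0.61 at day 10 and 3.58, 2.57, 3.62, 1.72 and 2.17 at day 30. The groups did not overlap. The difference was 2.88 with a standard error of 0.60 (unadjusted p = 0.000492, limma adjusted p = 0.781) and 2.51 within slide 2, but a further probe, well above background on 8 arrays, gave 0.32. Eif4a2, an RNA helicase of the cap-binding complex, also had groups that did not overlap, with a difference of 1.12 (unadjusted p = 0.00814). Of 39 tested proteasome genes 26 were higher and 13 lower, and Psmd5, an assembly chaperone, differed by -4.82 (unadjusted p = 0.00258) with 5 day 10 and 2 day 30 arrays well above background.

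Beyond the lists, the 12 genes of smallest p in each direction, with the same sign within slide 2 and detection in the higher group, are described next. Since they were ranked on this difference, their separation is a property of the ranking. Of those higher at day 30, Ctla2a had the tightest values. It encodes a protease inhibitor first found in cytotoxic T cells. Its levels were 2.14, 2.16, 2.35, 1.88 and 2.43 at day 10 and 3.53, 3.56, 3.13, 3.38 and 3.04 at day 30, and the groups did not overlap. The difference was 1.14 (standard error 0.27, limma adjusted p = 0.872) and 1.17 within slide 2, and controls averaged 2.75 ± 0.84 (SD, n = 5).

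Cxcl2, a chemokine that attracts neutrophils, was well above background on all 5 day 30 arrays and on 0 day 10 arrays, the 1 gene of this kind. Its levels were -4.54, -5.91, -4.32, -6.33 and -4.77 at day 10 and -1.79, -2.67, -0.02, -2.30 and -3.42 at day 30. For a gene that one group never showed well above background, only a minimum fold can be given. On each array of that group, whichever was higher of the probe's value and the dimmest signal still well above background stood in for it. Cxcl2 was at least 4.19-fold higher at day 30 on this basis (measured means -5.18 and -2.04, limma adjusted p = 0.872). Wars2, the mitochondrial tryptophanyl-tRNA synthetase, had levels of -0.84, -5.86, -3.49, -4.21 and -2.46 at day 10 and -0.44, 0.55, 0.97, 0.48 and -0.06 at day 30 (difference 3.67, adjusted p = 0.872 by limma). The groups did not overlap, with day 10 replicate 1 close below the day 30 arrays and the others far below.

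Tbc1d1, a Rab regulator that acts in insulin-driven glucose transport, had levels of 1.15, 1.38, 1.12, 1.42 and 0.83 at day 10 and 2.58, 2.65, 3.12, 1.61 and 3.16 at day 30, without overlap. The difference was 1.44 (standard error 0.37, limma adjusted p = 0.978), and a further probe well above background on all 10 arrays gave -0.36. Baz2a, a subunit of the complex that silences ribosomal RNA genes, had levels of 2.54, 1.90, 0.56, 1.82 and 1.52 at day 10 and 3.57, 2.56, 4.44, 3.07 and 3.35 at day 30 (difference 1.73 in both the full and the within-slide comparison). Anapc16, a subunit of the anaphase-promoting complex, had levels of -0.34, -0.04, -1.25, 0.35 and -0.19 at day 10 and 3.27, 1.66, 1.79, 0.83 and 1.12 at day 30 (difference 2.03). Scai, a regulator of actin-dependent transcription, also had groups that did not overlap (difference 2.53). Castor1, the arginine sensor of the mTORC1 pathway, Cdc14a, a cell cycle phosphatase, and Xab2, a splicing and DNA repair factor, had overlapping groups and differences of 4.31, 3.28 and 3.43. A further Cdc14a probe gave -0.85.

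**Figure D4:**
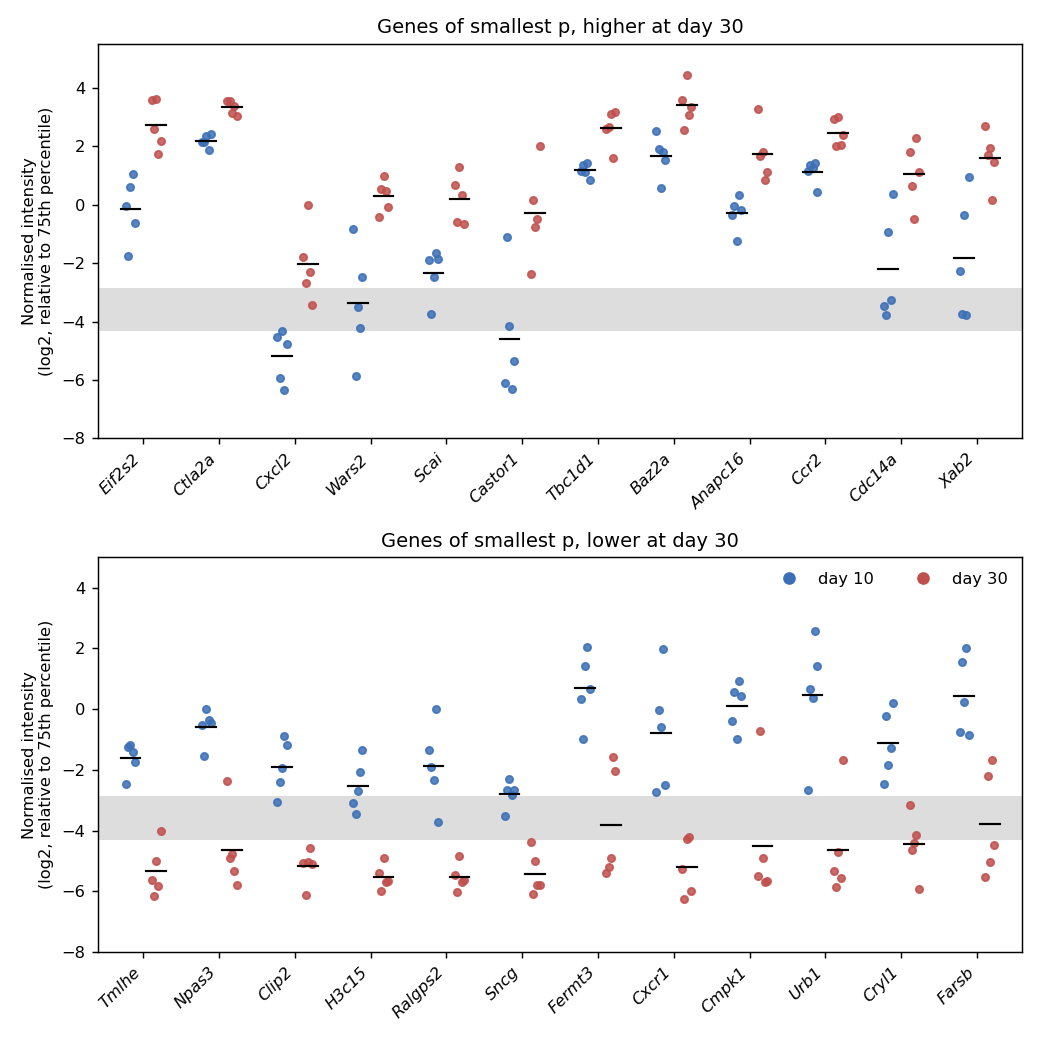
Levels of the 12 genes of smallest p higher at day 30 (upper panel) and lower at day 30 (lower panel) on the 5 day 10 arrays (blue) and 5 day 30 arrays (red), in log2 units relative to the 75th percentile of each array. Short lines are group means, and the grey band marks the dimmest detectable signals (-4.31 to -2.87). In the lower panel most day 30 values lie within the band or under it.

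The 12 genes lower at day 30 had to be well above background on at least 4 day 10 arrays to be named. Their detection at day 10 is thus set by that rule. Genes well above background on all 5 day 10 arrays and on 0 day 30 arrays numbered 18 of the 21806 tested, against 1 of the opposite kind. Detection over whole arrays was also lower at day 30, with a mean of 51.3% of spots against 58.5% at day 10. The part of this lower detection in the counts of 18 and 1 was not tested. Genes of either kind passed the filter of 5 arrays through 1 group alone. Tmlhe, an enzyme of carnitine synthesis, had the smallest p of the 12 genes. Its levels were -2.47, -1.25, -1.18, -1.40 and -1.73 at day 10 and -5.63, -6.16, -5.00, -5.84 and -4.01 at day 30. The groups did not overlap, and the measured difference was -3.72 (limma adjusted p = 0.317) and -3.76 within slide 2. As a bound, Tmlhe was at least 3.86-fold lower at day 30 (measured means -1.61 and -5.33), and controls averaged -3.77 ± 1.42 (SD, n = 5). The control mean thus lay nearer to the measured mean of day 30 than to that of day 10. The day 30 values were not well above background, so the distance to them is not well measured.

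Bounds of the same kind held for Ralgps2, a Ral exchange factor, which was at least 3.23-fold lower at day 30 (measured means -1.86 and -5.53, limma adjusted p = 0.621). Clip2, a microtubule-binding protein, was at least 3.15-fold lower (measured means -1.90 and -5.18, adjusted p = 0.580 by limma). H3c15, a histone H3 gene with near-identical copies that the probe may not separate, was at least 2.03-fold lower (means -2.53 and -5.53). Sncg, which encodes gamma-synuclein, was at least 1.68-fold lower (means -2.81 and -5.42). These genes lay near background even at day 10, so their bounds are far smaller than their measured differences.

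Cxcr1, a neutrophil chemokine receptor gene, had levels of -2.72, -0.04, -0.59, 1.97 and -2.51 at day 10 and -5.28, -6.25, -4.29, -4.21 and -5.98 at day 30, and was at least 6.85-fold lower at day 30 (limma adjusted p = 0.781). Fermt3, the leukocyte integrin activator kindlin-3, had levels of 0.34, -0.98, 1.43, 2.05 and 0.66 at day 10 and -5.41, -5.19, -4.91, -1.57 and -2.05 at day 30. Day 30 replicates 4 and 5 were intermediate and the groups did not overlap (difference -4.53, limma adjusted p = 0.781). Npas3, a transcription factor gene studied mainly in neurons, had levels of -0.52, -1.55, 0.01, -0.36 and -0.46 at day 10 and -2.36, -4.90, -4.79, -5.32 and -5.80 at day 30 (difference -4.06). In controls Npas3 averaged -3.82 ± 1.49 (SD, n = 5), again nearer to day 30, where most values lay below the dimmest detectable signals.

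Farsb, a subunit of phenylalanyl-tRNA synthetase, and Cryl1, an enzyme of sugar acid metabolism, had groups that did not overlap and differences of -4.22 and -3.33. Cmpk1, the UMP-CMP kinase, and Urb1, a ribosome assembly factor, differed by -4.60 and -5.10 with 1 day 30 array each in the day 10 range, replicate 2 for Cmpk1 and replicate 5 for Urb1. Control means of these 4 genes lay between the means of the 2 times, at -1.10 for Farsb, -2.88 for Cryl1, -2.13 for Cmpk1 and -1.86 for Urb1. The gene of smallest p in the whole comparison, named here after its values were seen, was the olfactory receptor gene Olfr575 (adjusted p = 0.103 by limma), well above background on 5 day 10 and 0 day 30 arrays and at least 13.9-fold lower at day 30.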

How the data were processed

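Scanner files of the 10 day 10 and day 30 arrays were analysed. Per the file headers, the deposited intensity values were made with Agilent Feature Extraction 10.7.3.1 on a grid annotated with build mm9, with background subtracted and no scaling between arrays. The deposited log2 table, whose 15 columns share 1 distribution, was used as an alternative, and the sources used here do not describe how the authors scaled it. From the intensities, log2 of the processed signal minus the array's 75th percentile over non-control probes was computed, spots of a probe were averaged, and a gene was represented by its brightest probe if 5 or more of the 10 arrays showed it well above background. This left out 13015 dim names. Of 5601 genes with several such probes, 2757 had probes of opposite sign. Outlier spots were left out (33 probe values missing), as was 1 damaged spot line, and 0 spots were saturated. Symbols came from a RefSeq table, matched for 31461 of 55681 probes.

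Groups were compared by two-sided moderated tests in limma 3.58.1 under R 4.3.3 (lmFit and trended eBayes), with Benjamini-Hochberg adjustment over all genes tested and a threshold of 0.05. Detection shares were compared with exact permutation tests. The calculations were tested on simulated data. Genes named are 35 T cell genes, the 12 of smallest p in each direction with an established symbol, detection on at least 4 arrays of the higher group and the same sign within slide 2, up to 3 of smallest p per list, and up to 5 per direction detected on all arrays of one group and none of the other. The members and the 41 lists were chosen with earlier results of these data known. The number of arrays limits the precision. Same-numbered replicates of the 2 times did not deviate together, so they were not paired. The 2 most alike arrays still differed by a median of 0.76 log2 units over genes, so none was treated as a repeat. A few of the genes named by these rules are not reported here.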

Additional observations from a re-analysis of the deposited data

Results flagged for a closer look

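Single arrays stood apart from the other 4 of their group, by the ratio of the gap to the range (Dixon's critical value of 0.71 for 5 arrays), in 12 of 196 groups examined. Chance marks about 1 in 20 such groups, or 9.8 here. Day 30 replicate 4 was the array concerned for Pdcd1 (-5.56, next value -0.58), for Il17f (-5.07, next 1.12) and for the mean level of heat shock genes (2.06, next 3.36). Day 10 replicate 3 was low for Gata3 (1.22, next 3.19) and Itgae (-5.08, next 1.91), and day 10 replicate 5 for Ccr2 (0.44, next 1.15). Day 30 replicate 3 was low for S1pr1 (-2.31, next 0.41) and high for the mean level of regulatory T cell genes (2.63, next 1.59). Among genes lower at day 30, Cmpk1 was high on day 30 replicate 2 (-0.72, next -4.89) and Urb1 on day 30 replicate 5 (-1.66, next -4.72). The mean level of cytosolic ribosomal proteins was low on day 10 replicate 2 (4.89, next 5.47), and that of secretory epithelium markers on day 10 replicate 1 (-1.97, next -1.28).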

How the results depend on the processing

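The count of genes at an adjusted p under 0.05 was 0 under the other settings run, and 1 with the percentile over detected probes (Olfr575, adjusted p = 0.0481). Leaving out 1 array gave 0 to 2 genes (2 without day 30 replicate 5, Spg21 and 1 unnamed probe). Within slide 2 the range was also 0 to 2 (2 without day 10 replicate 4, Pole3 and Rbm48, where the lone day 10 array is assumed to vary like the others). The count at an unadjusted p under 0.05 was 508 where genes had to be well above background on all 10 arrays, which tests fewer genes, and 837 to 1529 without 1 array, the highest without day 30 replicate 4. With the replicate number as a block, 0 genes had an adjusted p under 0.05 and 1072 an unadjusted p under 0.05, and no array correlated best with its own number in the other group. The detection share difference was -5.95 points within slide 2 and ran from -9.18 to -5.61 without 1 array. The split into higher and lower genes was 593 and 382 with values raised to the background floor, 811 and 642 with no filter, and 363 and 145 in a new fit of genes well above background throughout, a filter that genes lost at day 30 cannot pass. Against the day 10 arrays of slide 1 alone, chosen after seeing the data, it was 458 and 460. Of 165 genes examined, 117 kept their sign in each of up to 25 alternatives. Of the 41 list medians, 10 kept their side of the median of all genes in each alternative that gave a value. Dim signals limit every fold of genes near background.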
